A study of Mus musculus with 24 samples.

Results

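The 10 genes described here take part in the handling of iron, zinc and related metals, by transport, reduction or binding. All were followed through every library of a mouse RNA-sequencing series. They were the rows of the deposited table with the symbols Lcn2, Steap4, Slc30a10, Slc39a4, Slc40a1, Slc11a2, Cybrd1, Tfrc, Mt1 and Mt2, which gives 10 of 24421 rows, and all 10 passed the filter on low values in colon and in ileum. The series holds 24 libraries, 1 from colon and 1 from ileum of each of 12 C57BL/6 mice aged 8 to 14 weeks. Each library was made from sorted epithelial cells that were negative for the leukocyte protein CD45 and carried a tomato reporter under Villin, a gene of the epithelial brush border. KO late mice (n = 3) were taken 8 weeks after chimerism and KO early mice (n = 4) 2 weeks after it. WT irradiated mice (n = 2) were also taken 8 weeks after chimerism, and WT non-irradiated mice (n = 3) had no treatment. KO early and WT irradiated mice therefore differ in time as well as in genotype. The labels write only KO, with no allele, Cre driver or donor. The series title speaks of gut macrophages that lack IL-10Rα and of an epithelial response driven by IL-22, while its design text refers to macrophages of the colon. All samples are, by their labels, epithelium. An irradiation chimera has epithelium of recipient genotype, so Il10ra, which stood between 1.6 and 31.2 normalised reads over all 24 libraries, does not check the KO label. Il10ra had 21.1 to 27 in KO early, 14.8 to 31 in KO late, 9.9 to 20.8 in WT irradiated and 4.7 to 20.1 in WT non-irradiated colon. In ileum it had 21.9 to 31.2, 4 to 10, 5.5 to 8.6 and 1.6 to 12.9 in the same groups. The source of its RNA was not tested.

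Enterocytes reduce dietary iron at the brush border with Cybrd1, take it up with the divalent metal transporter Slc11a2, and pass it to the blood through ferroportin, encoded by Slc40a1. Tfrc takes up transferrin-bound iron from the blood side, Steap4 is a metalloreductase that is known to respond to inflammation, and Lcn2 (lipocalin 2) binds bacterial siderophores and so withholds iron from microbes. Zinc enters through Slc39a4, the metallothioneins Mt1 and Mt2 bind it in the cell, and Slc30a10, although a member of the zinc transporter family, is known as a manganese exporter. When iron is scarce, iron regulatory proteins bind hairpins called iron-responsive elements. Binding in the 5′ UTR blocks translation, as in ferroportin, and binding in the 3′ UTR stabilises the RNA, as in Tfrc.

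The sequences below show the 2 kinds of regulatory elements that these genes are known for. A search of annotated UTRs (GENCODE M21, with GRCm38 transcripts) took a C, 5 further bases and CAGTG followed by A, C or T. After these came 5 bases able to pair with the 5 before the loop. It found a match in 123 of 21877 genes (0.562%). Of the 10 genes, Tfrc held 4 matches in its 3′ UTR and Slc40a1 held 1 in its 5′ UTR, and the other 8 held none by these letters. Of the other iron genes looked up, the ferritin chains Fth1 and Ftl1 matched, and Epas1 and Hfe did not. The pattern asks for full pairing of the 5 bases, so a gene without a match may still hold an element of another form. Each window is 29 bases, given 5′ to 3′ on the transcript, with the loop letters in capitals.
Slc40a1: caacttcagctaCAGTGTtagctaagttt
Tfrc, the first match: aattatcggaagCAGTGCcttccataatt
Tfrc, the second match: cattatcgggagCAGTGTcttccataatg
Tfrc, the third match: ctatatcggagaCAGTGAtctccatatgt
Tfrc, the fourth match: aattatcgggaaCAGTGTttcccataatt
The 4 Tfrc loops lay at positions 3321, 3700, 3765 and 3812 of a transcript of 4890 bases (chromosome 16), and the Slc40a1 match at position 96 of 3370 (chromosome 1), counted at the C that opens the motif.

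Promoters were read from the RefSeq table (GRCm38.p6), which matched Lcn2, Steap4, Slc30a10, Cybrd1, Tfrc, Mt1 and Mt2. Slc39a4, Slc40a1 and Slc11a2 had no entry. The 250 bases before each start were searched on both strands for 3 motifs, the STAT motif TTCNNNGAA (in 7.02% of 32851 promoters), the metal response element TGCACNC or TGCGCNC (21.4%) and the hypoxia response element ACGTG (16.6%). Steap4 is shown because it rose in KO colon, with its only match, a STAT motif whose first base lies at -116 from the start, in capitals.
Steap4, chr5:7960222-7960471, plus strand: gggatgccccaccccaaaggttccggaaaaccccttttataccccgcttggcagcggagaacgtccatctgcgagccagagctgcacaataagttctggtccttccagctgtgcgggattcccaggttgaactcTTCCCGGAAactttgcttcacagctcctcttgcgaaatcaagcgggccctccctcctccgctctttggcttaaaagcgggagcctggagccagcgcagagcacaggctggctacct
Slc30a10, which fell in KO late colon, and Mt2, a gene known to be switched on by zinc through this element, are shown with metal response elements in capitals. In Slc30a10 the matches began at -233 and -232, which overlap, and at -73, and in Mt2 at -223, -128 and -50.
Slc30a10, chr1:185454598-185454847, plus strand: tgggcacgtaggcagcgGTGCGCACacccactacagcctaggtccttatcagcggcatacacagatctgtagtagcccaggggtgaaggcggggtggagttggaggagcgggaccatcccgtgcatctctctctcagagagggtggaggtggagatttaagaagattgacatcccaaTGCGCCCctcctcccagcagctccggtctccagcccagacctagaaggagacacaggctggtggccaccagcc
Mt2, chr8:94172368-94172617, plus strand: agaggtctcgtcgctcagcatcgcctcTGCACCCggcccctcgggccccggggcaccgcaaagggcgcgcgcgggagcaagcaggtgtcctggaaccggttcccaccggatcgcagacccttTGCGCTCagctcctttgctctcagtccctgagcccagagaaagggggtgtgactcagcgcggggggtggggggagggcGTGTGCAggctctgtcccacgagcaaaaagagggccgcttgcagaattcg
Slc30a10 also held a hypoxia motif at -246. Mt1 held a metal response element at -23 and a hypoxia motif at -79. Bases after an annotated start were not searched, so the number of elements of a gene holds for this window only. Tfrc has 2 annotated starts, with overlapping metal response elements at -53 and -50 of one and a hypoxia motif at -228 of the other. Lcn2 and Cybrd1 held none of the 3 motifs by these letters in this window. A match describes letters and is not a measured binding site.

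Levels are given below as normalised reads, which are reads divided by the size factor of the library as deposited, so they compare samples for 1 gene and not 1 gene with another. Libraries held 8.32 to 18.7 M reads (median 13.2 M), and the ribosomal RNA gene Rn45s took 0.0642 to 29.4% of them. All 8 epithelial markers checked, such as Epcam and Vil1, were detected in every group, 5 colon markers summed to 25092 to 78287 in colon and 2810.3 to 5539.7 in ileum, and 5 ileum markers to 5632 to 16149 in colon and 158451 to 393273 in ileum, so the tissue labels held. The summed level of macrophage markers was higher in KO than in WT colon. Of these markers 9 of 10 were in the table, and their sum was 816 to 1112 in KO late colon, 619 to 1284 in KO early colon, 358 to 491 in WT irradiated colon and 364 to 558 in WT non-irradiated colon. Mrc1 and Cd14 supplied much of it in KO colon, while Cd68 (12.4 to 42.4 in KO late colon) overlapped its WT irradiated range (10.4 to 31.3). The sum of 10 general leukocyte markers overlapped, at 415 to 885 in KO late, 428 to 522 in KO early, 305 to 546 in WT irradiated and 303 to 687 in WT non-irradiated colon. Group means lay above those of WT irradiated colon for all 9 macrophage markers, Cd68 included, in both KO groups. For the leukocyte markers they did so for 10 of 10 in KO late and 8 of 10 in KO early colon. Olfactory and vomeronasal receptor genes, which epithelium is not known to use, took 752 to 1052 reads per M in KO late colon, 429 to 693 in KO early colon, 234 and 592 in WT irradiated colon and 232 to 682 in WT non-irradiated colon. In bulk samples of this kind fewer cells of a type and less RNA per cell cannot be told apart.

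Of the 10 genes, 3 passed the test in KO late against WT irradiated colon. Steap4 and Lcn2 were higher and Slc30a10 was lower (limma on log2(value + 1), Benjamini-Hochberg over all genes tested, adjusted p under 0.05). Of all 19145 genes tested in that comparison, 1.03% passed, 0.642% as higher and 0.387% as lower. In KO early against WT irradiated colon, 2 of the 10 passed, Steap4 and Tfrc, both higher, where 0.204% of all genes passed and 0.167% were higher. KO late and KO early colon differed in none of the 10 by limma, while 0.00522% of all genes passed. For 4 of the 10 the unadjusted p was under 0.05 there, as for 10.8% of all genes, and edgeR and DESeq2 called none of the 10, while DESeq2 called 213 genes in all. These comparisons share control mice or KO mice and are not independent of each other.

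In ileum no gene of the 10 passed in KO late against WT irradiated, KO early against WT irradiated or KO late against KO early, and 0% of all 19122 genes tested passed in each of the 3 by limma. The unadjusted p was under 0.05 for 2 of the 10 in KO late ileum (Slc30a10 and Tfrc), 2 in KO early ileum (Mt1 and Mt2) and 1 in KO late against KO early ileum (Mt2). The shares of all genes with such a p were 0.821%, 24.9% and 24.6% in these 3 comparisons, so the counts in the second and the third are no higher than the background. For these 10 genes edgeR and DESeq2 made no call in ileum either. Over all genes edgeR called 0 in the 3 comparisons, and DESeq2 called 0 in KO late ileum, 209 in KO early ileum and 1377 in KO late against KO early ileum. WT irradiated and WT non-irradiated mice differed in none of the 10, in colon or in ileum, by limma, edgeR or DESeq2. There 0% of all genes passed in colon and 0% in ileum by limma or edgeR, while DESeq2 called 0 genes in colon and 2 in ileum. By limma, 0 of the 10 had an unadjusted p under 0.05 in either tissue.

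**Figure D1:**
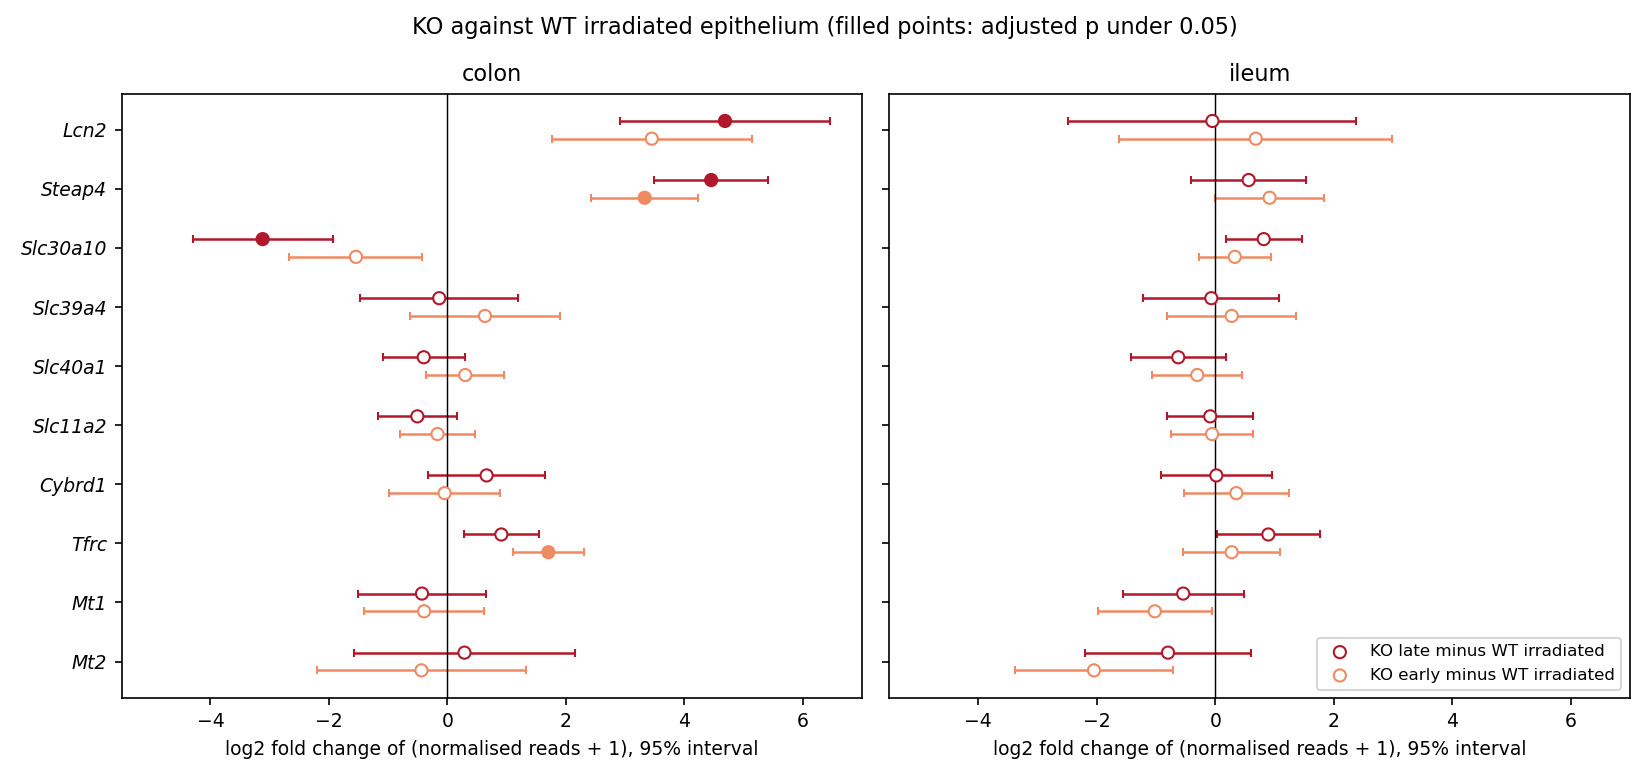
Log2 fold change of normalised reads + 1 for each of the 10 genes in KO late (dark red) and KO early (orange) against WT irradiated mice, in colon (left) and ileum (right). Bars are 95% intervals from limma, and filled points had an adjusted p under 0.05. The filled points are Lcn2, Steap4 and Slc30a10 for KO late colon and Steap4 and Tfrc for KO early colon, and no point is filled in ileum.

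Steap4 was higher in the colon of both KO groups than in that of WT irradiated mice. It had 3245, 2282 and 4339.8 normalised reads in KO late colon and 1252, 724, 2727 and 1836 in KO early colon, against 143 and 145 in WT irradiated colon and 119.8, 188 and 172 in WT non-irradiated colon. All 7 KO colon libraries lay above all 5 WT colon libraries, and the KO late and KO early ranges overlapped. The mean was 3289 ± 1029 in KO late colon (SD, n = 3) and 1635 ± 858 in KO early colon (n = 4), against 144 ± 1.27 in WT irradiated colon (n = 2). On the log2 scale Steap4 was higher by 4.45 ± 0.45 (SE, adjusted p = 0.000668) in KO late colon, which placed it at rank 3 of 19145 genes by p. In KO early colon it was higher by 3.33 ± 0.42 (SE, adjusted p = 0.00483). That call was lost without WT irradiated mouse 59 (adjusted p = 0.101) or mouse 61 (0.0751), whereas the KO late call was kept under all 14 alternatives tried, with receptor reads as a covariate included. KO late exceeded KO early colon by 1.12 ± 0.37 (SE, adjusted p = 0.388), which did not pass.

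In ileum Steap4 had 24, 39.1 and 30.4 normalised reads in KO late ileum and 28.8, 35, 50.4 and 47 in KO early ileum, against 13.5 and 30.4 in WT irradiated ileum and 19.2, 19.4 and 37.8 in WT non-irradiated ileum. The ranges of KO and WT ileum overlapped. The log2 difference from WT irradiated ileum was 0.57 ± 0.45 (SE, adjusted p = 1.00) for KO late and 0.92 ± 0.43 (SE, adjusted p = 0.202) for KO early. The KO late effect was larger in colon than in ileum by 3.89 ± 0.64 (SE, adjusted p = 0.00931), a difference tested directly. In that test 0.189% of all 19588 genes passed and 0.143% of all genes passed as higher in colon. Of the 10 genes 2 passed, Steap4 and Slc30a10. For Steap4 the call was lost without KO late mouse 49 (adjusted p = 0.0552), KO late mouse 57 (0.0595), WT irradiated mouse 59 (0.0934) or mouse 61 (0.268). The KO early effect differed by 2.41 ± 0.60 (SE, adjusted p = 0.271), which did not pass. In that test 0 of the 10 passed, where 0.0408% of all genes did. For 3 of the 10 the unadjusted p was under 0.05 in it, as for 9.88% of all genes, edgeR called none and DESeq2 called Steap4 (adjusted p = 0.0218), where it called 0.475% of all genes. With the mouse as a block, which pairs the colon and ileum of an animal, Steap4 passed (adjusted p = 0.0359), as did 0.281% of all genes.

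Lcn2 was low in WT colon. It had 35.9, 64.1 and 97.6 normalised reads in KO late colon and 16.9, 10.5, 116 and 18.8 in KO early colon, against 0.8 and 2.2 in WT irradiated colon and 1.3, 1.6 and 4.8 in WT non-irradiated colon. The 3 KO late and 4 KO early libraries all lay above the 5 WT libraries, and KO early mouse 118 stood far above the other KO early mice. In whole reads the WT irradiated libraries held 1 and 3, so the level there rests on 4 reads. The ratio of depth-scaled reads was 43.4 for KO late colon (205 reads) against WT irradiated colon, with a 95% interval of 16.7 to 161 (exact binomial, counting error only). For KO early colon (210 reads) it was 25.6, with an interval of 9.87 to 95.01. Mouse 118 supplied 149 of these 210 reads, and without it the KO early ratio was 9.88. Without WT irradiated mouse 61 the ratios were 82.4 for KO late and 48.7 for KO early colon. On the log2(value + 1) scale, which understates the change of so low a gene, KO late exceeded WT irradiated colon by 4.69 ± 0.83 (SE, adjusted p = 0.0164).

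The Lcn2 call in KO late colon was not firm. The adjusted p was 0.0654 without KO late mouse 50, 0.0642 without KO late mouse 57, 0.252 without WT irradiated mouse 59 and 0.0566 without WT irradiated mouse 61. It was 0.0595 with edgeR and 0.104 with receptor reads as a covariate, with log2 differences of 4.27 to 5.27 without a mouse or with edgeR and 4.02 with the covariate. In KO early colon the log2 difference was 3.45 ± 0.79 (SE, adjusted p = 0.138), which did not pass. It passed with both WT groups as the control (3.23, adjusted p = 0.0229), where 1.08% of all genes passed, and with DESeq2 (4.73, adjusted p = 0.00423), which called 1.23%. In ileum Lcn2 had 6.7, 2.2 and 0.9 normalised reads in KO late ileum and 0, 4.1, 11.1 and 19.8 in KO early ileum, against 3.2 and 2.3 in WT irradiated ileum and 0, 4.5 and 2.8 in WT non-irradiated ileum, with all 4 ranges overlapping. The KO late effect in colon minus that in ileum was 4.73 ± 1.48 (SE, adjusted p = 0.41), which did not pass.

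Neutrophils also make Lcn2, so their markers are given beside it. All 10 neutrophil markers were in the table, and none was at 0 throughout KO late or KO early colon. Their sum was 1880.2 to 2486 in KO late colon, 1104 to 3876 in KO early colon, 774 to 1388 in WT irradiated colon and 1019 to 2357 in WT non-irradiated colon, and it lay between 72.1 and 239 in ileum. In colon the surface protein gene Ly6g supplied most of it, with 987 to 1618 in KO late colon, 850.4 to 3421 in KO early colon and 624 to 1309 in WT irradiated colon. In WT non-irradiated colon Ly6g had 958 to 2302, which overlapped both KO ranges. Means were above those of WT irradiated colon for 9 of the 10 markers in KO late colon and for 7 in KO early colon. Camp was lower in both KO groups, and Csf3r (mean 24.65 against 25.6) and Ngp (8.625 against 11.35) were lower in KO early colon. Mpo, the myeloperoxidase gene, had 18.7 to 27.3 in KO late colon, 10.9 to 14.3 in KO early colon, 5.8 to 16.4 in WT irradiated colon and 7.8 to 23.3 in WT non-irradiated colon. The receptor gene Cxcr2 had 6.9 to 39.1, 7 to 24.9, 5.9 to 7.4 and 1.6 to 6.4, and Retnlg 1 to 22.5, 0 to 31.1, 0.8 to 3.7 and 0 to 3.2 in the same groups. The granule genes Camp (0 to 2 in KO late colon, 0 to 2.5 in KO early colon and 2.5 to 6.7 in WT irradiated colon) and Elane (0 to 2.5, 0.8 to 3 and 0.7 to 1.6 in the same groups) were near 0. Ltf, which encodes the iron-binding protein lactoferrin and is also made by mucosal epithelium, had 723 to 794 in KO late colon, 113 to 1283 in KO early colon, 26.3 to 51.3 in WT irradiated colon and 15.5 to 40.2 in WT non-irradiated colon. The part of neutrophil RNA in the Lcn2 level was not tested.

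Tfrc, the transferrin receptor, had 3759, 3964 and 5468 normalised reads in KO late colon and 8563, 8985, 6589 and 6298 in KO early colon, against 2190.1 and 2425 in WT irradiated colon and 3219.9, 1833 and 2285 in WT non-irradiated colon. Every KO colon library lay above every WT colon library, and the 4 KO early libraries lay above the 3 KO late ones. KO early exceeded WT irradiated colon by 1.71 ± 0.28 (SE, adjusted p = 0.0264) on the log2 scale. The adjusted p was 0.0696 with edgeR and 0.0646 when only the 2 groups were fitted. It was 0.0516 without KO early mouse 117, 0.0628 without KO early mouse 118, 0.369 without WT irradiated mouse 59 and 0.262 without WT irradiated mouse 61. The KO late difference was 0.91 ± 0.30 (SE, adjusted p = 0.197), which did not pass by limma and passed by DESeq2 (adjusted p = 0.0331), which called 4.2% of all genes there. KO late minus KO early colon was -0.79 ± 0.25 (SE, adjusted p = 0.375), also not past the threshold.

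In ileum Tfrc had 4297, 7185 and 11021 normalised reads in KO late ileum and 5839, 2496, 5959.6 and 4914 in KO early ileum, against 3124 and 4497 in WT irradiated ileum and 2909, 2702 and 2444 in WT non-irradiated ileum. KO late ileum held the highest value of all libraries, in mouse 57, but its lowest lay within the WT irradiated range. The log2 difference from WT irradiated ileum was 0.90 ± 0.40 (SE, adjusted p = 1.00) for KO late and 0.28 ± 0.38 (SE, adjusted p = 0.631) for KO early. Tfrc was higher in colon than in ileum of the same animal in all 4 KO early mice, in 0 of 3 KO late mice and in 1 of 5 WT mice. The KO early effect in colon minus that in ileum was 1.43 ± 0.49 (SE, adjusted p = 0.404), which did not pass. Red cell precursors carry much Tfrc. The sum of 7 erythroid markers was 132 to 185 in KO late colon, 134 to 482 in KO early colon, 191 to 248 in WT irradiated colon and 143 to 236 in WT non-irradiated colon, and 4 of the 7 had a mean in KO early colon above that in WT irradiated colon, against 1 of 7 in KO late colon. The globin gene Hbb-b1 had 6.2 to 15.8 in KO late colon, 23.3 to 295.9 in KO early colon and 23.9 to 36.4 in WT irradiated colon. Klf1, a transcription factor of that lineage, was at 5 to 10, 3.7 to 8.4 and 7.4 to 10.7 in the same groups. The part of red cell RNA in the Tfrc level was not tested. Of the 5 hairpin windows shown above, 4 belong to Tfrc, and their activity was not measured here.

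**Figure D2:**
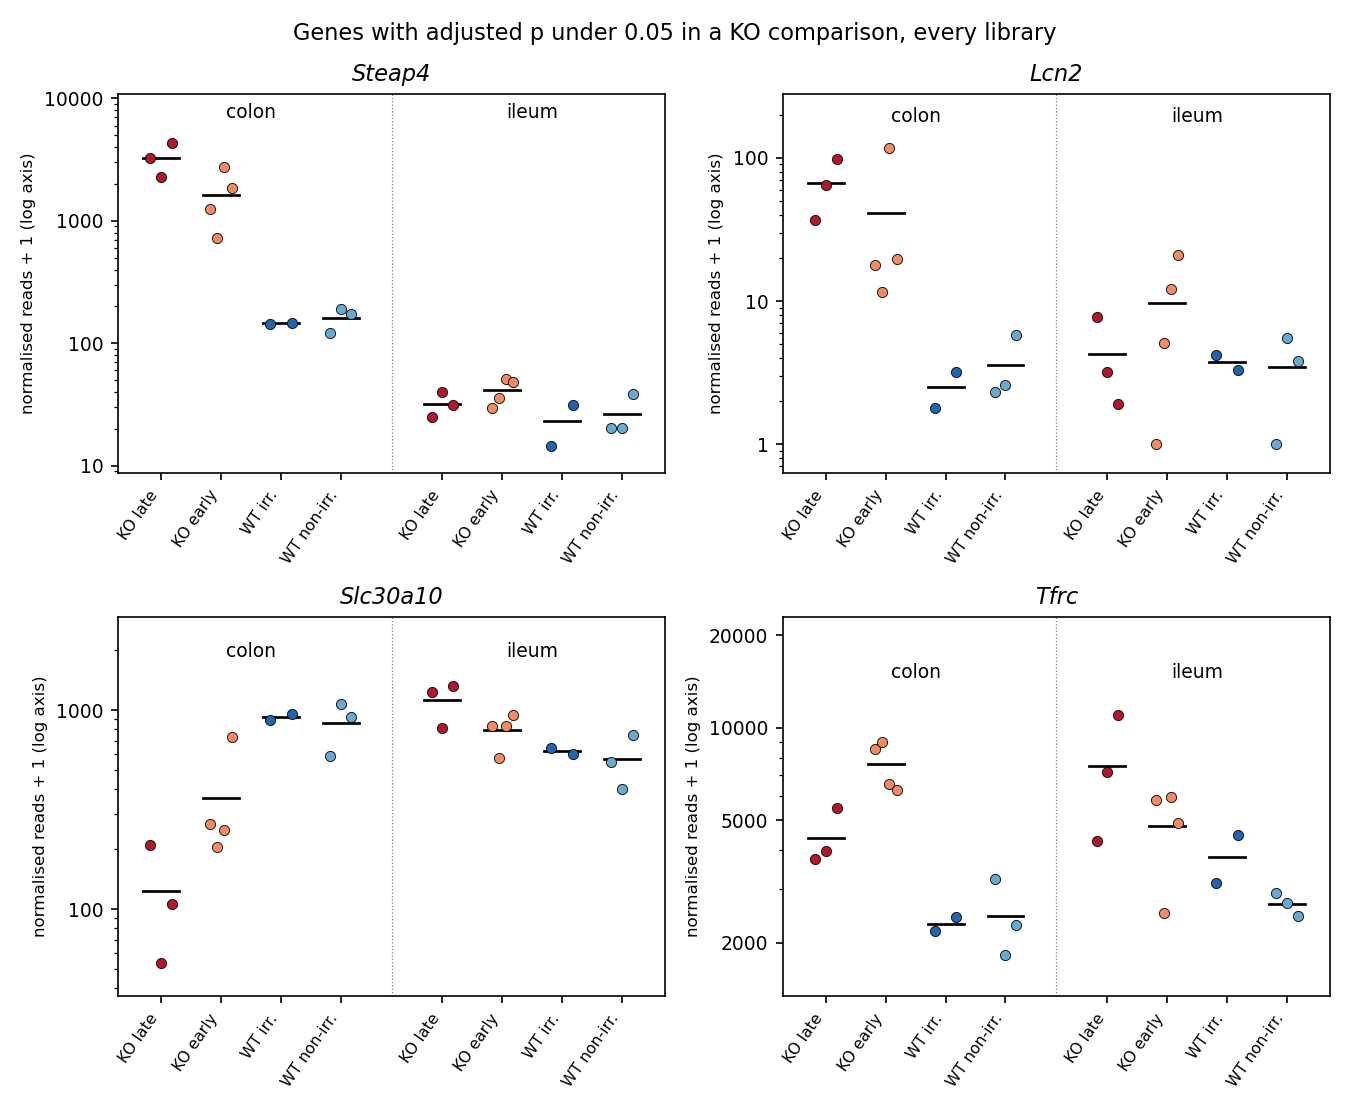
Normalised reads + 1 (log axis) of the 4 genes that passed the test in a KO comparison, with 1 point per library and a bar at the group mean, for colon and ileum of KO late, KO early, WT irradiated and WT non-irradiated mice. Steap4 and Lcn2 are higher in all 7 KO colon libraries than in all 5 WT colon libraries, Slc30a10 is lower in the 3 KO late colon libraries than in every WT colon library, and Tfrc is highest in colon in KO early mice.

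Slc40a1, which encodes the iron exporter ferroportin, separated the tissues. In colon it had 3042, 1738 and 3244 normalised reads in KO late colon and 4879, 2889, 4609 and 4759 in KO early colon, against 3246 and 3563 in WT irradiated colon and 3384, 4836 and 3785 in WT non-irradiated colon. KO late colon lay below WT irradiated colon without overlap, and the log2 difference of -0.40 ± 0.32 (SE, adjusted p = 0.467) did not pass. KO early differed from WT irradiated colon by 0.30 ± 0.31 (SE, adjusted p = 0.959) and KO late from KO early colon by -0.70 ± 0.27 (SE, adjusted p = 0.438). In ileum the gene had 326, 249 and 484 normalised reads in KO late ileum and 361, 268, 557 and 603 in KO early ileum, against 440.1 and 624 in WT irradiated ileum and 537, 343 and 358 in WT non-irradiated ileum, and the differences from WT irradiated ileum were -0.62 ± 0.37 (SE, adjusted p = 1.00) for KO late and -0.30 ± 0.35 (SE, adjusted p = 0.57) for KO early.

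Slc11a2, the importer of divalent iron, had 446, 487 and 696 normalised reads in KO late colon and 778, 524, 627 and 812 in KO early colon, against 852 and 674 in WT irradiated colon and 1009, 947 and 558 in WT non-irradiated colon. In ileum it had 954, 582 and 1158 normalised reads in KO late ileum and 1489.7, 635, 848 and 756 in KO early ileum, against 930.1 and 901 in WT irradiated ileum and 1097, 954 and 984 in WT non-irradiated ileum. The group means in colon stood in the order KO late, KO early, WT irradiated and WT non-irradiated from low to high, but neighbouring ranges overlapped. Neither the KO late difference in colon (-0.51 ± 0.31 (SE, adjusted p = 0.365)) nor the KO early one (-0.17 ± 0.30 (SE, adjusted p = 0.963)) passed. Across the 12 colon libraries the log2 level of Slc11a2 went with receptor reads per M at r = -0.91, and this is a description of libraries that share a preparation.

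Cybrd1, the brush border ferric reductase, was low in every group. It had 47.1, 70.8 and 28.6 normalised reads in KO late colon and 26.1, 27, 31.1 and 26.5 in KO early colon, against 20.6 and 39.4 in WT irradiated colon and 16.6, 21.8 and 37.8 in WT non-irradiated colon. In ileum it had 33.4, 49.1 and 19 normalised reads in KO late ileum and 31, 37.5, 66.5 and 33.4 in KO early ileum, against 25.3 and 38.2 in WT irradiated ileum and 40.9, 46.2 and 43.4 in WT non-irradiated ileum. In colon the KO and WT ranges overlapped, and in ileum WT irradiated lay below WT non-irradiated without overlap while both KO ranges overlapped both WT ranges. None of the differences passed, and the KO late difference was 0.66 ± 0.46 (SE, adjusted p = 0.407) in colon and 0.02 ± 0.44 (SE, adjusted p = 1.00) in ileum. Cybrd1 went with receptor reads at r = 0.85 over the 12 colon libraries. For the genes called in a KO comparison r there was 0.73 (Lcn2), 0.68 (Steap4), -0.66 (Slc30a10) and 0.38 (Tfrc). In ileum these genes had 0.50, 0.87, 0.15 and 0.22, in the same order. These values are descriptions.

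Slc30a10 was the only one of the 10 that passed as lower in a KO comparison. It had 208, 52.5 and 106 normalised reads in KO late colon and 266, 204, 249 and 728 in KO early colon, against 889 and 952 in WT irradiated colon and 586, 1068 and 925 in WT non-irradiated colon. The 3 KO late libraries lay below all 5 WT colon libraries. In KO early colon, 3 of 4 libraries lay below every WT colon library, while mouse 120 lay below both WT irradiated mice but above the lowest WT non-irradiated one. The mean was 122 ± 79.1 in KO late colon (SD, n = 3) and 362 ± 246 in KO early colon (n = 4), against 921 ± 44.9 in WT irradiated colon (n = 2).

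On the log2 scale Slc30a10 differed from WT irradiated colon by -3.12 ± 0.55 (SE, adjusted p = 0.0164) in KO late and by -1.54 ± 0.52 (SE, adjusted p = 0.51) in KO early colon, of which only the KO late difference passed. The KO late adjusted p was 0.063 without KO late mouse 50, 0.17 without WT irradiated mouse 59, 0.0816 without mouse 61 and 0.0689 with receptor reads as a covariate, while the log2 difference was -2.63, -3.17, -3.07 and -3.16 in the same 4 fits. KO late minus KO early colon was -1.58 ± 0.46 (SE, adjusted p = 0.355). In ileum Slc30a10 had 1235, 814 and 1315 normalised reads in KO late ileum and 827, 576, 830.2 and 944 in KO early ileum, against 645 and 598 in WT irradiated ileum and 545, 401 and 749 in WT non-irradiated ileum. There every KO late library lay above both WT irradiated ones, the opposite side from colon, with a log2 difference of 0.82 ± 0.30 (SE, adjusted p = 1.00) that did not pass. The KO late effect in colon minus that in ileum was -3.94 ± 0.67 (SE, adjusted p = 0.0102), where 0.0459% of all genes passed as lower. Without KO late mouse 57 its adjusted p was 0.0642, without WT irradiated mouse 59 0.28 and without mouse 61 0.268. Within animals, Slc30a10 was lower in colon than in ileum in all 7 KO mice and higher in colon in all 5 WT mice, with colon over ileum ratios of 0.0645 to 0.169 in KO late, 0.299 to 0.771 in KO early and 1.08 to 2.66 in WT mice.

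Slc39a4, the zinc importer that is defective in the human zinc deficiency disorder acrodermatitis enteropathica, varied widely within groups. It had 798, 906 and 3204 normalised reads in KO late colon and 3177, 985, 3789 and 2205 in KO early colon, against 2199 and 964 in WT irradiated colon and 2640.1, 2668 and 1572 in WT non-irradiated colon. In ileum it had 3307, 1236 and 1794 normalised reads in KO late ileum and 5779, 1861, 1664 and 2069 in KO early ileum, against 2909 and 1421 in WT irradiated ileum and 3041, 2611 and 1480.1 in WT non-irradiated ileum. Its range within KO late colon already covered that of WT irradiated colon, and the log2 difference was -0.14 ± 0.62 (SE, adjusted p = 0.904) in KO late colon and 0.64 ± 0.59 (SE, adjusted p = 0.959) in KO early colon. KO late minus KO early ileum was -0.34 ± 0.45 (SE, adjusted p = 0.643), and with receptor reads as a covariate it passed as lower (-0.86, adjusted p = 0.0391), where 6.94% of all genes passed under that setting.

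Neither metallothionein passed in a KO comparison. Mt1 had 1008, 1904 and 2879 normalised reads in KO late colon and 2208, 1022, 2728 and 1750.3 in KO early colon, against 2605 and 2175 in WT irradiated colon and 1876, 4325 and 1600 in WT non-irradiated colon, and in ileum 3852, 4041 and 3396 normalised reads in KO late ileum and 5795, 1845, 2184 and 2246 in KO early ileum, against 5445 and 5471 in WT irradiated ileum and 2957, 6903 and 2205 in WT non-irradiated ileum. The log2 difference from WT irradiated mice was -0.43 ± 0.50 (SE, adjusted p = 0.606) in KO late colon, -0.39 ± 0.47 (SE, adjusted p = 0.959) in KO early colon, -0.54 ± 0.47 (SE, adjusted p = 1.00) in KO late ileum and -1.02 ± 0.45 (SE, adjusted p = 0.187) in KO early ileum. In colon the KO and WT ranges overlapped. In ileum KO late lay below WT irradiated without overlap but within the WT non-irradiated range, and KO early overlapped both WT ranges.

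Mt2 had 54.5, 94.1 and 115 normalised reads in KO late colon and 37.1, 18.7, 244 and 37 in KO early colon, against 121 and 38.7 in WT irradiated colon and 25.5, 106 and 62.7 in WT non-irradiated colon. In ileum it had 41.4, 31.2 and 34.2 normalised reads in KO late ileum and 15.5, 6.5, 34.3 and 11.5 in KO early ileum, against 69.7 and 55.4 in WT irradiated ileum and 15.2, 17.9 and 68.3 in WT non-irradiated ileum. KO late and KO early ileum both lay below WT irradiated ileum without overlap, and mouse 118 stood above the other KO early mice in colon as it did for Lcn2. The log2 difference from WT irradiated ileum was -0.80 ± 0.65 (SE, adjusted p = 1.00) in KO late and -2.05 ± 0.62 (SE, adjusted p = 0.165) in KO early mice, neither past the threshold. Of the 3 WT non-irradiated ileum libraries, 2 lay within the KO early range. The log2 levels of Mt1 and Mt2 correlated at r = 0.04 over the 24 libraries, at 0.63 over the 12 of colon and at 0.29 over the 12 of ileum, as a description.

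**Figure D3:**
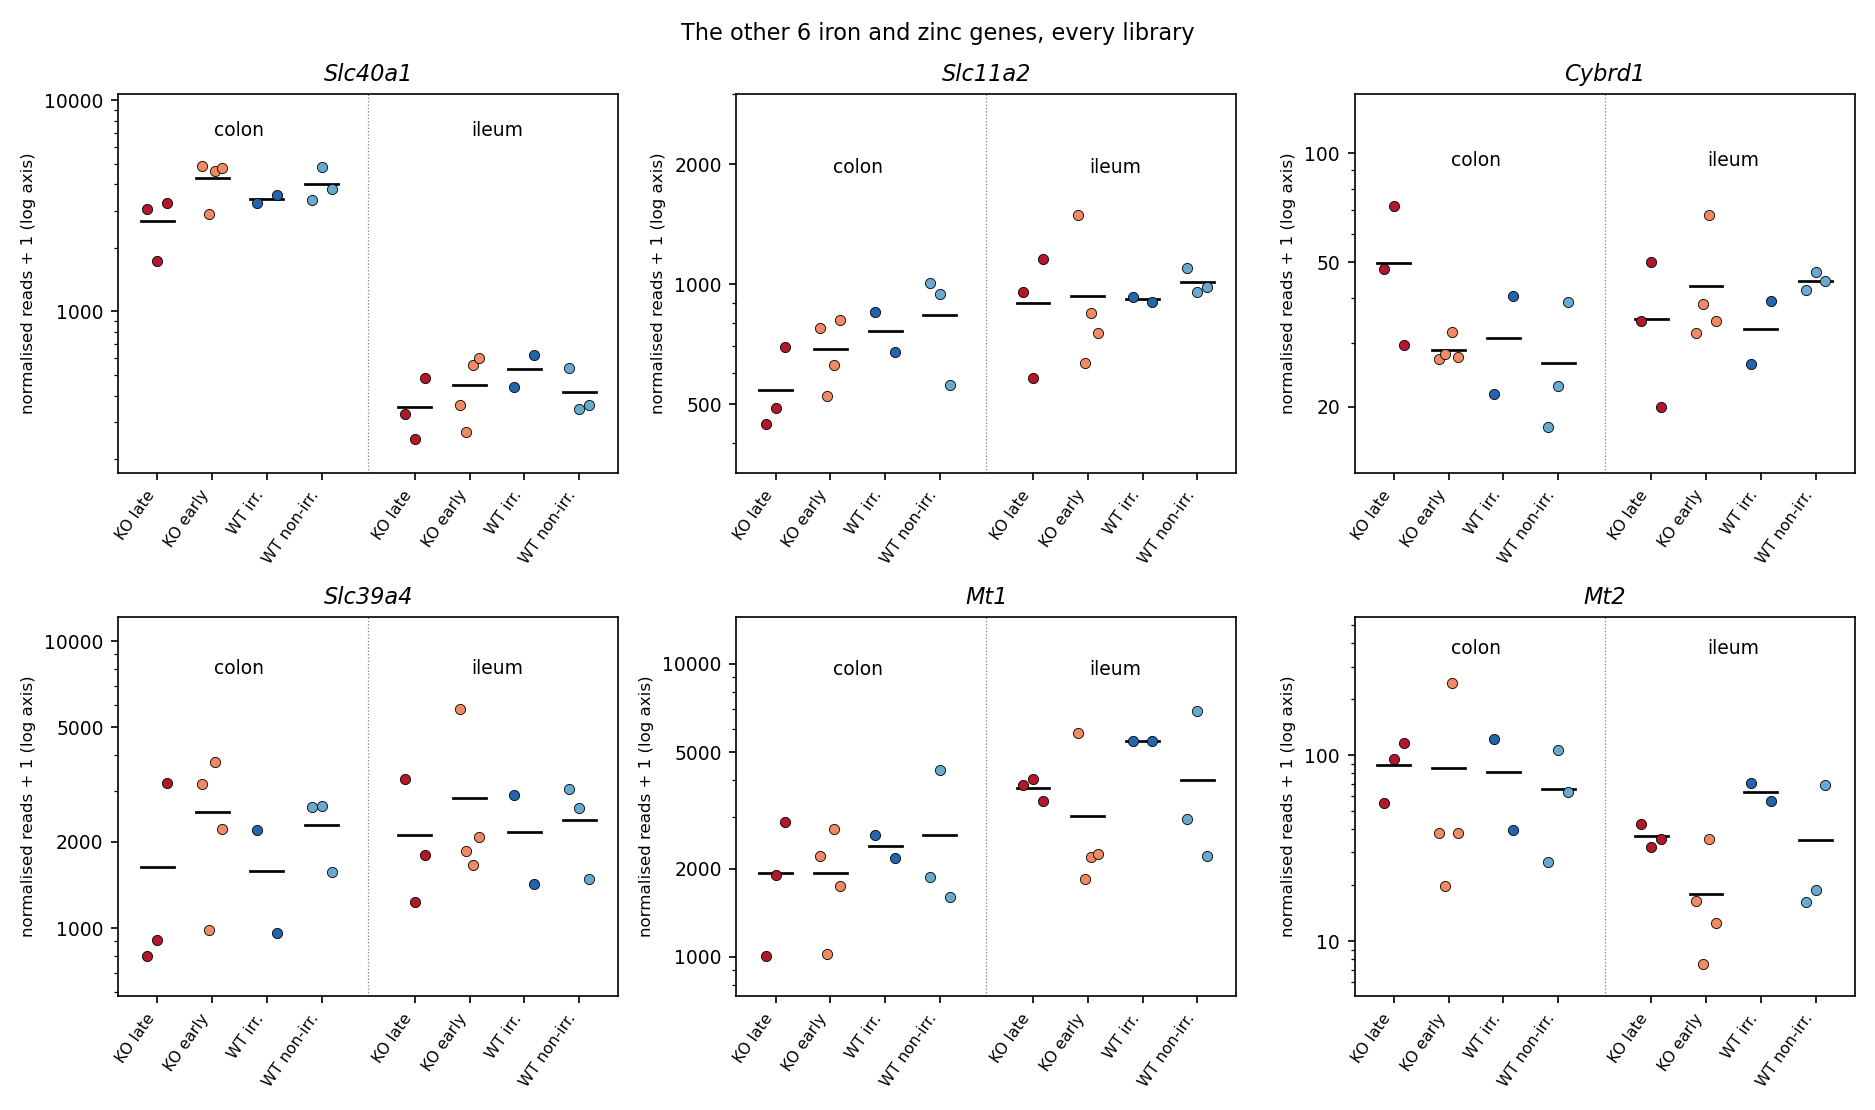
Normalised reads + 1 (log axis) of the 6 genes with no call in a KO comparison, with 1 point per library and a bar at the group mean. The 12 colon libraries of Slc40a1 lie between 1738 and 4879 normalised reads and the 12 ileum libraries between 249 and 624, and for the other 5 genes the ranges of colon and ileum overlap.

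WT colon and WT ileum were compared to set the level from which the KO groups departed. Of the 10 genes, 2 passed, both higher in colon, where 21.6% of all genes passed and 10.8% were higher. Slc40a1 was higher in colon by 2.99 ± 0.25 (SE, adjusted p = 3.51e-09) on the log2 scale and Steap4 by 2.71 ± 0.32 (SE, adjusted p = 6.46e-07). Both were higher in colon in all 12 mice of the series. The colon over ileum ratio of Slc40a1 was 5.70 to 14.1 over the 12 mice, and that of Steap4 was 58.4 to 143 in KO late and 20.7 to 54.1 in KO early mice, against 4.55 to 10.6 in the 5 WT mice. Mt1 was lower in colon in all 5 WT mice by -0.90 ± 0.37 (SE, adjusted p = 0.0956), which did not pass without the mouse as a block. With the block its adjusted p was 0.0229, or 0.00655 with the mouse as a fixed term, and 28.6% and 27.3% of all genes passed in these fits. The other 7 genes did not pass, with log2 differences between -0.48 (Cybrd1) and 0.59 (Slc30a10), and Slc30a10 was higher in colon in all 5 WT mice.

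Other genes of iron handling also differed between the WT tissues. Calls are from the fit without the block, and for the iron and zinc lists together they number 18, against 23 with the mouse as a block and 22 with it as a fixed term. Of 34 iron genes tested, 6 were higher in colon and 5 were lower, where 21.6% of all genes passed and 10.8% were higher. The median log2 difference was 0.01 for the list and 0.00 for all genes. Epas1, the hypoxia-inducible factor of intestinal iron absorption, had 1746 to 3335 normalised reads in WT irradiated colon and 2128 to 3230.4 in WT non-irradiated colon, against 341 to 799 and 510.3 to 569.6 in ileum of the same groups, a log2 difference of 2.21 ± 0.25 (SE). Hif1a (1.12 ± 0.28), the ferritin heavy chain Fth1 (1.07 ± 0.20), transferrin Trf (1.46 ± 0.26), the haemochromatosis gene Hfe (0.99 ± 0.25) and the reductase Steap3 (0.73 ± 0.23) were higher in colon as well. Among the 5 that were lower in colon were the mitochondrial iron importer Slc25a37 (-2.14 ± 0.17), the iron regulatory protein Aco1 (-1.57 ± 0.22), Fbxl5, which targets iron regulatory protein for degradation (-1.05 ± 0.19), and Heph, the ferroxidase that works with ferroportin (-0.78 ± 0.20). Heph had 4502 to 5221 and 4429 to 6313 in WT irradiated and WT non-irradiated colon, against 9693 to 9775 and 6456 to 10465 in ileum, the opposite direction from Slc40a1.

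Of 23 other zinc and manganese genes tested, 2 were higher and 5 lower in WT colon, where 21.6% of all genes passed and 10.8% were higher. The median log2 difference was -0.26 against 0.00 for all genes. The zinc transporter Slc30a2 had 15.6 to 18.6 in WT irradiated colon and 12.7 to 20.1 in WT non-irradiated colon, against 315 to 564 and 398 to 476 in ileum, a log2 difference of -4.64 ± 0.27 (SE). The importers Slc39a5 (-2.29 ± 0.53) and Slc39a14 (-1.75 ± 0.18) and the transporters Slc30a5 (-1.54 ± 0.21) and Slc30a6 (-0.47 ± 0.16) were lower too. Slc39a8 (0.65 ± 0.22) and Slc39a11 (0.47 ± 0.15) were higher in colon. None of the 18 called differences of both lists changed sign under the 12 alternatives, and the call was kept in 6 of 12 for Slc39a8, 7 for Slc30a6, 9 for Slc39a11 and at least 11 for each of the others.

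**Figure D4:**
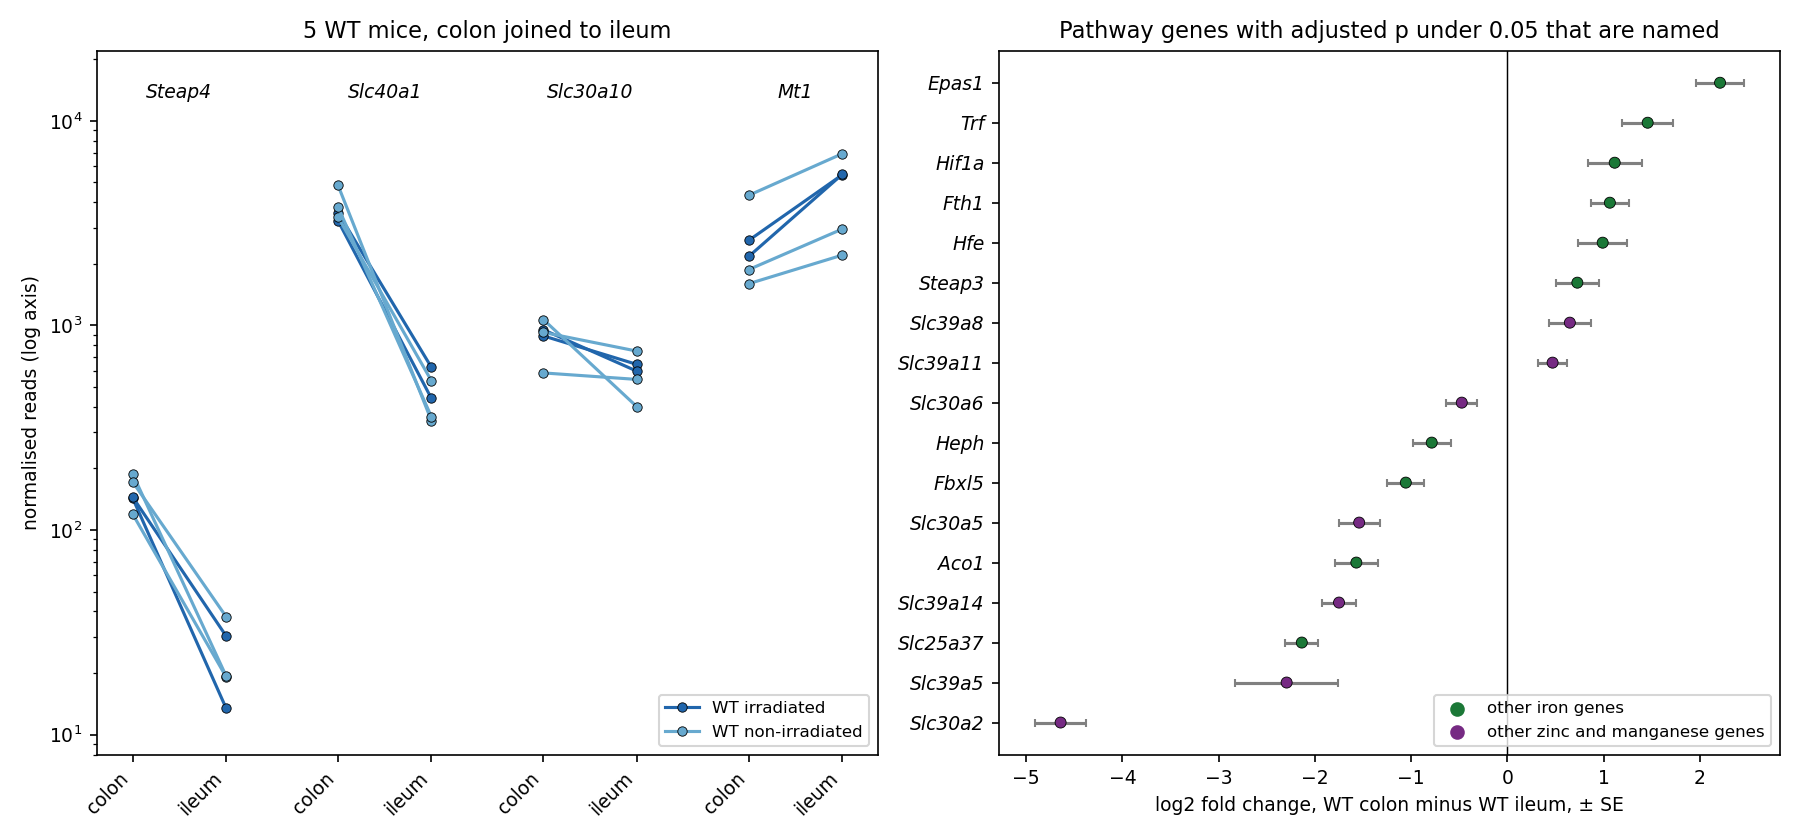
Left, normalised reads (log axis) of 4 genes in the 5 WT mice, with colon joined to ileum of the same mouse, for WT irradiated (dark blue) and WT non-irradiated (light blue) mice. Right, log2 fold change ± SE of WT colon minus WT ileum for 17 of the 18 other metal genes with an adjusted p under 0.05, 10 of iron (green) and 7 of zinc and manganese (purple). Slc40a1 and Steap4 lie higher in colon in every WT mouse and Mt1 lower, and Slc30a2 has the lowest value at the right, -4.64.

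In the KO comparisons none of the other metal genes passed by limma or edgeR, in colon or in ileum. Of 33 iron genes tested in colon, 8 had an unadjusted p under 0.05 in KO late and 2 in KO early mice, and of 23 zinc and manganese genes 3 and 0 did, where 16.5% and 6.40% of all genes had one in KO late and KO early mice. The medians in KO late colon were -0.11 for the iron list, 0.03 for the zinc list and -0.01 for all genes. By DESeq2, Hif1a was higher (1.21, adjusted p = 0.0299) and Slc25a37 lower (-0.67, adjusted p = 0.0365) in KO late colon, where it called 4.2% of all genes. Hif1a had 5420.5 to 10021 in KO late colon and 4182 to 9049 in KO early colon, against 3225 to 3565 in WT irradiated colon. Slc25a37 had 244 to 263 and 237 to 349 in KO late and KO early colon, against 389 to 448 in WT irradiated colon. The closest relatives of Steap4 did not pass by limma, and Steap1 had 53.3 to 65.8 and Steap2 356 to 498 in KO late colon, against 23.9 to 32.7 and 219 to 239 in WT irradiated colon.

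In ileum DESeq2 called Tmprss6, a protease that acts on the hepcidin pathway, as higher in KO early mice (1.73, adjusted p = 0.0393), where it called 1.09% of all genes. It had 42.8 to 65.5 normalised reads in KO early ileum, against 13.5 to 20.3 in WT irradiated ileum. With receptor reads as a covariate limma called Slc46a1, a carrier of folate and haem, as lower in KO late than in KO early ileum (-0.95, adjusted p = 0.0327), where it called 6.94% of all genes, at 36.1 to 72.1 in KO late and 57.8 to 86.5 in KO early ileum. Hepcidin itself, Hamp, stood at or below 10.1 normalised reads in every library.

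Each of the 10 genes was set beside the other genes of the table by the Pearson correlation of log2(value + 1) over the 24 libraries, among the 12410 genes whose mean reached 50 normalised reads. The libraries share animals, tissues and preparation, and genes that differ between colon and ileum correlate for that reason alone. Within colon the same holds for genes that differ between KO and WT mice, so these values are descriptions. Steap4 was most like Gsap (r = 0.97), Wfdc18 (r = 0.97) and Trpv6 (r = 0.97). Among the 3 genes most like Lcn2 were Sprr2h (r = 0.88) and Clec2g (r = 0.86), and Slc30a10 was most like Prss23 (r = 0.85), Tspan7 (r = 0.83) and Prkg2 (r = 0.83). Tfrc stood further from its nearest genes, Ccne1 (r = 0.81), Acat2 (r = 0.81) and Gusb (r = 0.76). Slc40a1, whose levels follow the tissue, was most like Tspan1 (r = 0.98), Prdx6 (r = 0.97) and Slc6a14 (r = 0.97).

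The 5 remaining genes had these nearest neighbours. For Slc39a4 they were Abca7 (r = 0.95), Fbxo6 (r = 0.94) and Lrp10 (r = 0.94), for Slc11a2 Cox7a1 (r = 0.91), Cd81 (r = 0.91) and Pttg1ip (r = 0.91) and for Cybrd1 Soga3 (r = 0.85), Lmcd1 (r = 0.85) and Tnfrsf19 (r = 0.85). Mt1 was nearest to Frmd8 (r = 0.86), Cox19 (r = 0.86) and Rbm38 (r = 0.86), and Mt2 to Slc19a2 (r = 0.69), Abl2 (r = 0.68) and Natd1 (r = 0.68). Among the 10 genes themselves, Lcn2 and Steap4 correlated at 0.96 over the 12 colon libraries and at 0.42 over the 12 ileum libraries. Slc30a10 ran against both in colon, at -0.81 with Lcn2 and -0.78 with Steap4, and in ileum the values were 0.14 and 0.38. Slc39a4 and Slc11a2 correlated at 0.70 in colon and 0.68 in ileum.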

How the data were processed

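Per the submitters' processing notes, reads were handled with bcl2fastq, HISAT 0.1.6 and HOMER on mm9, and per the labels' protocols a stranded kit for total RNA, with ribosomal RNA removed, was used, although the molecule label says polyA RNA. The sources used here do not say whether counting used strand. The table deposited by the authors holds a coverage signal, which is the reads of a gene over the size factor of the library. From the recovered whole reads this equals median-of-ratios scaling. All low values were whole multiples of 1 read within 0.05 normalised reads in 23 of the 24 libraries. In the other, 1 read is worth about 1 normalised read. The symbols of the 10 genes each stood in 1 row.

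Tests used limma 3.58.1 with a trend in R 4.3.3 on log2(value + 1), for genes that reached 10 normalised reads in 2 or more libraries, with Benjamini-Hochberg adjustment and calls under 0.05. Within a tissue all 12 libraries were fitted, and colon against ileum and the differences between tissues used all 24. There were 11 comparisons. edgeR 4.0.16 and DESeq2 1.42.0 on the recovered reads, other pseudocounts, filters, scalings, controls, a receptor covariate, a mouse block and leaving out each mouse were alternatives. The steps were tested on simulated data.

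The 10 genes and the lists of 38 iron genes (36 in the table) and 25 zinc and manganese genes were chosen with earlier results of these data known, so counts over them are descriptions. Ranges without overlap are descriptions too, since the share of all genes that separate in this way was not counted. The rule for names took the 10 genes in every comparison, list genes called in a KO comparison and the 3 nearest genes of each. Ltf, other markers, list genes called between WT tissues, Steap1, Steap2, Heph and Hamp were named after their values were seen. Some genes that met the rule are not reported here. Replicates are separate mice by number, and the labels tie colon and ileum to 1 animal. Across genes, how far colon and ileum of a mouse lay from their group means correlated between -0.36 and 0.56, with a median of 0.22, and exceeded 0.1 in 5 of the 10 mice examined, with the 2 WT irradiated mice left out because in a group of 2 deviations are mirror images. Sequences come from GRCm38, not mm9, and no coordinate is shared between them.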

Additional observations from a re-analysis of the deposited data

Results flagged for a closer look

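In groups of 4 KO early mice, 6 values stood apart, with a gap to the next value that passed Dixon's test at 95%. In all, 20 groups were examined, and chance alone gives about 1 in 20. In KO early colon, mouse 118 had 115.7 normalised reads of Lcn2 and 244 of Mt2, both the highest of its group. Mouse 120 was highest for Slc30a10 at 728, and mouse 117 was lowest for Slc40a1 at 2889. In KO early ileum, mouse 100 was highest for Slc39a4 at 5779 and for Mt1 at 5795. That library had the highest Rn45s share of the series (29.4%), and 1 read was worth 2.22 normalised reads there, also the highest. Its receptor reads, 277 per M, were the lowest of its group, which reached 711. The cause of these values was not tested.

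The KO late effect differed between the tissues in 2 genes by a direct test. It was larger in colon than in ileum by 3.89 on the log2 scale for Steap4 (limma, adjusted p = 0.00931). Steap4 was higher in colon in 3 of 3 KO late mice and also in 5 of 5 WT mice, with ratios of 58.4 to 143 in KO late and 4.55 to 10.6 in WT mice. For Slc30a10 the difference was -3.94 (adjusted p = 0.0102), lower in colon in 3 of 3 KO late mice and in 0 of 5 WT mice.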

How the results depend on the processing

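Of 110 values of the 10 genes over 11 comparisons, 9 were called, and none of these changed sign under any alternative. Steap4 in KO late colon kept its call in 14 of 14 alternatives, and Steap4 and Slc40a1 between WT tissues in 12 of 12. The calls of Lcn2 (8 of 14) and Slc30a10 (10 of 14) in KO late colon, Steap4 (13 of 15) and Tfrc (9 of 15) in KO early colon, and the tissue differences of Steap4 (7 of 11) and Slc30a10 (8 of 11) were lost under others. Receptor reads as a covariate left 1 of the 3 genes called in KO late colon, with log2 differences of -3.16 (-3.12 without it) for Slc30a10 and 4.02 (4.69) for Lcn2. It added 1 (Slc39a4) in KO late against KO early ileum, where the count was 0 and the count over all genes became 1327 in place of 0. The Lcn2 read ratios without 1 mouse, added after seeing the data, were 30.4 to 82.4 for KO late and 9.88 to 48.7 for KO early colon. KO early colon fell to 1 called gene with edgeR and to 1 with only the 2 groups fitted. For the KO early effect in colon minus ileum the count was 1 in place of 0 with the replicate block and 1 with DESeq2. Of the other calls, the block changed that of Mt1 between WT tissues. Leaving out 1 mouse gave 1 to 3 called genes in KO late colon, 0 to 2 in KO early colon and 0 to 2 for the KO late tissue difference. The cause was not tested, and with 2 WT irradiated mice the loss of 1 leaves a lone control assumed to vary like the other groups.

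Of the 101 values not called, 41 changed sign and 5 were called under some alternative in the planned set, so their signs carry little. The count over all genes in KO late colon was 197, with 82 to 805 under other settings and 11 to 103 without 1 mouse. In KO early colon it was 39, with 23 to 235 and 3 to 73. Higher and lower calls in KO late colon were 123 and 74, against 155 and 172 with library-total scaling. That scaling moved the median log2 difference of all genes to 0.12 between WT tissues, where it was 0.00, and to 0.16 between WT irradiated and WT non-irradiated colon, where it was 0.01, to -0.10 between the same groups in ileum (0.02 in the values as deposited) and to -0.18 for the KO early effect in colon minus ileum (-0.07 as deposited). Low genes such as Lcn2 are limited by depth.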
